A study of Mus musculus with 16 samples.

Results

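Iodomethylcholine (IMC) was given in the liquid diet to mice that received no ethanol, and liver RNA of these mice was compared with that of pair-fed mice on vehicle. The comparison took 8 of the 16 libraries of the series, 4 from pair-fed mice on vehicle (Pair control, libraries 10, 12, 14 and 16) and 4 from pair-fed mice on IMC (Pair IMC, libraries 2, 4, 6 and 8), each from the liver of 1 mouse. Of 24082 genes in the table, 12031 reached a normalized count of 10 in at least 4 of these 8 libraries and were tested, 6864 were at 0 in all 8, and 5187 had a read but were too low to test. All mice were C57Bl6/J, and by the study's methods they were females of 9 to 11 weeks that had 2 days to adapt to the liquid control diet and then 25 days on it, in which carbohydrate replaced ethanol. Both groups were pair-fed, and the diet of the IMC group held IMC at 0.06% (wt/wt). By a figure legend of the study, body weight also differed between pair-fed mice with and without IMC (Student's t-test), with no direction given in words. IMC and body weight therefore cannot be told apart. In pair-feeding, the intake of the control mice is set by ethanol-fed mice, and the ethanol-fed mice on IMC ate less by the study's account; which ethanol-fed group set the intake of each pair-fed group is not given in the sources used here, so IMC and intake cannot be told apart. The 8 ethanol-fed libraries (4 on vehicle, 4 on IMC) entered the model for the spread between mice and for 1 comparison between diets. Even library numbers up to 8 were all IMC and those from 10 all vehicle, so the order of the libraries cannot be told apart from IMC either.

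IMC inhibits the enzyme with which gut bacteria cleave choline to trimethylamine (TMA), a gas that the liver takes up from portal blood and oxidizes to trimethylamine N-oxide. The liver is also where cholesterol, bile acids and most plasma proteins are made, where drugs and hormones are broken down, and where growth hormone sets a sex-dependent pattern of cytochrome P450, sulfotransferase and major urinary protein genes.

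The 8 libraries held between 9632659 and 11976719 reads on genes, so that 1 read was worth 0.912 to 1.18 units of the deposited normalized count. All 16 hepatocyte markers listed were high enough to test. The Y-linked gene Ddx3y was at 0 in all 8 libraries of these females. Of 19 pancreas markers 13 were at 0 in all 8 libraries, Cpa1 among them. The only one high enough to test, Cela1, an elastase, was 116, 93.4, 102 and 112 in vehicle mice and 82, 66.6, 74.1 and 70.6 in IMC mice and fell (log2 fold change -0.52, SE 0.14, adjusted p = 0.0269, up to 0.085 without IMC mouse 4). Ctrb1, a chymotrypsinogen, was 3.80 to 40.3 in vehicle mice and at most 0.953 in IMC mice. Cela2a, another elastase, went the other way, with at most 2.85 in vehicle mice and 5.47 to 15.3 in IMC mice. Of 4 intestine markers tested none passed, and Fabp2, a fatty acid-binding protein, was 929, 875, 959 and 1006 in vehicle mice and 579, 422, 496 and 529 in IMC mice without overlap (log2 fold change -0.90, SE 0.37, adjusted p = 0.131, and 0.00171 with the pair-fed libraries alone). No kidney or fat marker was high enough to test, and the highest of these 9 reached 18.1. The part of such cells in any other change was not tested. Control library 12 stood apart in acute phase genes, with Saa1, a plasma protein of inflammation, at 6450 against 169.7 to 585 in the other 7. Control library 16 had the highest macrophage markers and library 10 the lowest. Along the first principal component of the 12031 genes (34.7% of the variance), the vehicle mice lay between -23.6 and -16.1 and the IMC mice between 10.9 and 28.6. The vehicle mice were spread along the second component (18.4%), from -31.2 to 20.9, and the IMC mice less, from -3.86 to 6.16.

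With limma on log2(normalized count + 1) and Benjamini-Hochberg adjustment, 1178 of 12031 genes (9.79%) passed an adjusted p of 0.05. Of these, 539 (4.48% of those tested) were higher and 639 (5.31%) lower with IMC. Falls were larger than rises: the median called fall was -0.63 and the median called rise 0.46 on the log2 scale, and 135 genes fell by more than 1 against 64 that rose by more than 1. The median fold change over all genes tested was 0.00 on the log2 scale. In 946 of the 1178 genes the 4 values of the vehicle mice and the 4 of the IMC mice did not overlap, which selection by p favours. Of all genes tested, called or not, 14.5% did not overlap (7.64% higher and 6.88% lower). With the 8 pair-fed libraries alone, 674 genes passed, 628 of them among the 1178. Leaving out IMC mouse 4 left 542 genes and leaving out IMC mouse 6 left 537, the 2 IMC mice farthest from the vehicle mice on the first principal component.

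**Figure D1:**
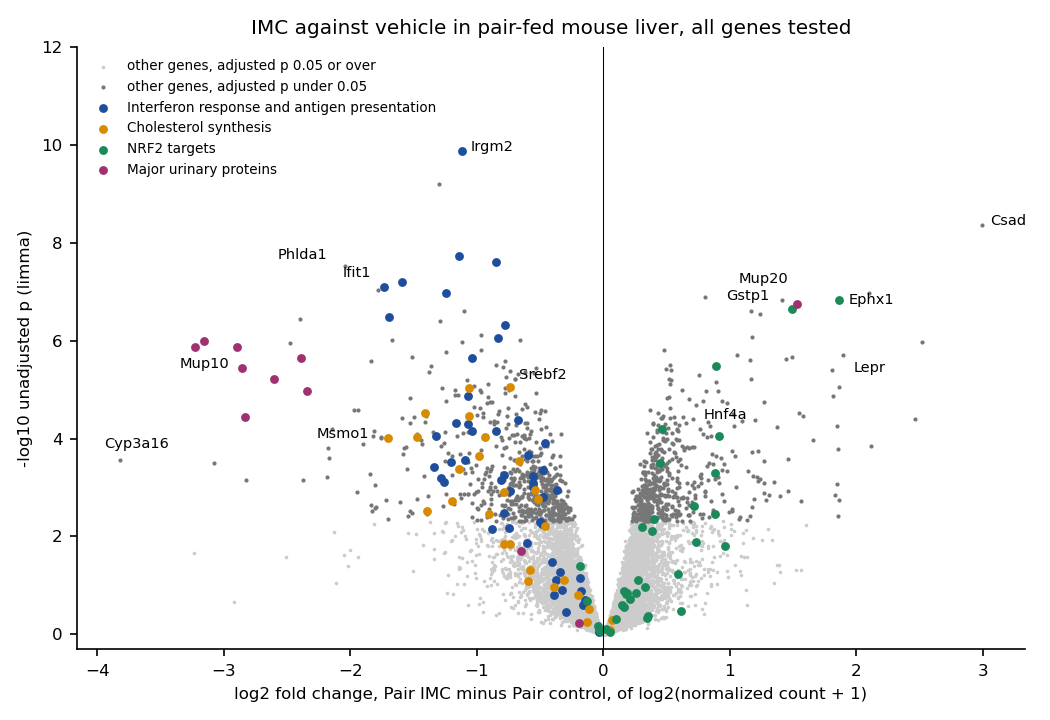
Log2 fold change with IMC in pair-fed mice (horizontal axis) against -log10 of the unadjusted limma p (vertical axis) for each of the 12031 genes tested, with members of 4 gene lists coloured. Interferon, cholesterol and most major urinary protein genes lie to the left of 0, and NRF2 targets mostly to the right, with Csad at the far right.

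The gene that rose most was Csad, which encodes cysteine sulfinic acid decarboxylase, the enzyme that commits cysteine carbon to taurine. Its normalized count was 550.2, 575, 881 and 1482 in the 4 vehicle mice and 5796, 8156, 5359.6 and 6524 in the 4 IMC mice. Every IMC mouse was above every vehicle mouse, and the log2 fold change was 2.99 (SE 0.28, adjusted p = 1.77e-05). Csad lies at chr15:102176999-102204724 of GRCm38. Tsku, a secreted protein that modulates TGF-beta and Wnt signalling, was 142, 362, 374 and 348 in vehicle mice and 838, 2745, 1888 and 547 in IMC mice, a log2 fold change of 2.11 (SE 0.44, adjusted p = 0.00659), with IMC mice 4 and 6 far above mice 2 and 8. Serpina7, the thyroxine-binding globulin, was 335, 794, 376 and 869 in vehicle mice and 1487, 1396, 2301 and 1036 in IMC mice (log2 fold change 1.46, SE 0.32, adjusted p = 0.00965). Gstp1, a glutathione S-transferase, and Mup20, the major urinary protein known as darcin, rose by 1.49 (SE 0.18) and 1.53 (SE 0.18, adjusted p = 0.000165 and 0.000144). Spaca6, named for its role in sperm, and Lhx6, a LIM homeobox factor, rose by 2.10 (SE 0.24) and 1.55 (SE 0.28, adjusted p = 0.000118 and 0.00286). Lepr, the leptin receptor, Il22ra1, the receptor chain for interleukin-22, Ephx1, the microsomal epoxide hydrolase, and Cyp4a31, an omega-hydroxylase, completed the largest rises together with G6pc. Only called genes with groups that do not overlap were ranked. Fgf21, with values that overlapped, was not ranked and rose by 1.84.

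Falls were ranked in the same way, among called genes with groups that do not overlap. The 12 largest among genes above a normalized count of 100 were Cyp3a16 and Cyp3a41b, Mup17, Mup15 and Mup10, Sult2a8, the guanylate-binding proteins Gbp10 and Gbp11, A1bg, Phlda1, Cd24a and Junb. Phlda1 is a pleckstrin-homology protein induced by growth factors. Its normalized count was 388, 457, 292 and 653 in the 4 vehicle mice and 94.4, 95.8, 94.7 and 132 in the 4 IMC mice. Its values did not overlap, and the log2 fold change was -2.05 (SE 0.22, adjusted p = 5.89e-05). Junb, an immediate early transcription factor of the AP-1 family, was 249.5, 887, 241 and 177 in vehicle mice and 80.1, 133, 120.0 and 42.4 in IMC mice (log2 fold change -1.85, SE 0.44, adjusted p = 0.0147), and its highest value was in control library 12, the one with high acute phase genes. Without that library the adjusted p of Junb was 0.0336. Cd24a, a surface glycoprotein abundant in bile duct cells, fell by 1.95 on the log2 scale (adjusted p = 0.0228, up to 0.0583 without control mouse 12), beside the bile duct markers described further down.

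**Figure D2:**
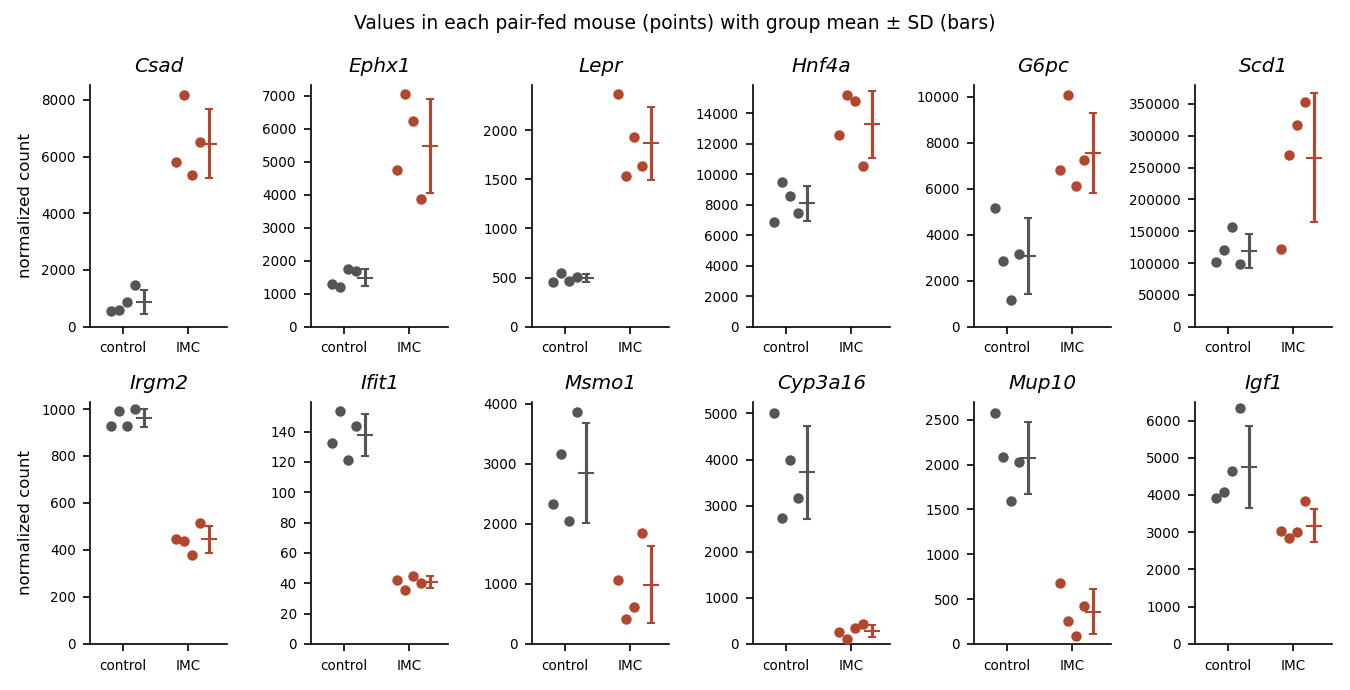
Normalized count (vertical axes, from 0) of 12 genes in each of the 4 vehicle (grey) and 4 IMC (red) pair-fed mice, with the group mean and SD beside the points. In 11 of the 12 genes the groups do not overlap, and in Scd1 IMC mouse 2 lies among the vehicle mice.

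Interferon response genes fell together. Interferons act through transcription factors that bind the interferon-stimulated response element and switch on antiviral proteins, GTPases that act on intracellular pathogens, and the machinery that loads peptides on MHC class I. Of the 50 genes of this list that were tested, 34 fell and none rose (68% lower, beside 5.31% of all genes tested), with a median log2 fold change of -0.76. Called or not, 34 of the 50 had all 4 IMC values below all 4 vehicle values, beside 6.88% of all genes tested. Of the called falls 31 were among these, and Irf7, Dhx58 and Ifih1 passed with values that overlapped. Averaged over the list, the vehicle mice lay between -0.17 and 0.17 and the IMC mice between -0.98 and -0.54 on the log2 scale, relative to the vehicle mean.

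The gene with the lowest p of all 12031 was Irgm2, an immunity-related GTPase. Its normalized count was 928, 991, 929.6 and 998 in the 4 vehicle mice and 447, 437, 379.7 and 516 in the 4 IMC mice. The groups were far apart for their spread (log2 fold change -1.12, SE 0.08, adjusted p = 1.61e-06). Igtp, a GTPase of the same family, was 495, 694, 585 and 676 in vehicle mice and 314, 262, 241 and 287 in IMC mice (log2 fold change -1.14, SE 0.12, adjusted p = 5.71e-05). The guanylate-binding protein Gbp3 was 317, 322, 334 and 331 in vehicle mice and 126, 80.3, 83.4 and 159 in IMC mice (log2 fold change -1.59, SE 0.18, adjusted p = 0.000106). Gbp2, Gbp7 and Irgm1 fell, with log2 fold changes of -1.17, -1.04 and -0.78. Counts of near-identical Gbp and Irgm copies can be shared between genes, so the split between such copies is uncertain. Among antiviral effectors, Ifit1, which binds foreign RNA, was 133, 154, 121 and 144 in vehicle mice and 41.9, 35.6, 45 and 40 in IMC mice (log2 fold change -1.74, SE 0.20, adjusted p = 0.000118). Isg15, a ubiquitin-like modifier, was 83.5, 119.9, 72.7 and 92.2 in vehicle mice and 41, 20.1, 23.4 and 28.3 in IMC mice (log2 fold change -1.70, SE 0.21, adjusted p = 0.000198). Ifit3, Rsad2 and Oasl1 fell, with log2 fold changes of -1.33, -1.21 and -1.07, while Ifit2 and Usp18 did not pass, with log2 fold changes of -0.33 and -0.41.

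Of the transcription factors of the response, Irf1 fell by 0.85 (log2, adjusted p = 0.00436). Irf9 and Irf7 fell, with log2 fold changes of -0.55 and -0.79, calls that were lost without IMC mouse 6 (adjusted p = 0.0558 and 0.0561). Stat2 did not pass (log2 fold change -0.16, adjusted p = 0.489). In antigen presentation, the peptide transporter Tap1 was 247, 299, 279.8 and 301 in vehicle mice and 112, 130.5, 87.2 and 153 in IMC mice (log2 fold change -1.24, SE 0.14, adjusted p = 0.000118). The immunoproteasome subunits Psmb8, Psmb9 and Psmb10, which replace their constitutive counterparts under interferon, fell, with log2 fold changes of -0.67, -1.07 and -0.63, whereas the constitutive subunit Psmb5 was at 0.09 (adjusted p = 0.63). The class I genes H2-Q4, H2-T23 and H2-K1 fell, with log2 fold changes of -0.85, -0.59 and -0.46, and B2m, their shared light chain, was at -0.14 with an adjusted p of 0.435. The fall was not limited to class I: the class II genes H2-Ab1 and H2-Eb1 fell as well, while the class II gene H2-Aa did not pass. Irf8, a further transcription factor of the list, also fell. Cxcl10, a chemokine that interferon induces, fell from 50.1, 65, 39.7 and 46.6 in vehicle mice to 15.3, 14.6, 7.5 and 12.9 in IMC mice (log2 fold change -1.94, SE 0.34, adjusted p = 0.00261).

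In bulk tissue, fewer cells of a type and less RNA per cell cannot be told apart. Of 20 Kupffer cell and macrophage markers tested, none passed with limma, edgeR or DESeq2, 1 had an unadjusted p under 0.05, and their median log2 fold change was -0.06. Of their defining markers, Clec4f was between 721 and 2062 in vehicle mice and between 847 and 1274 in IMC mice. Only 3 of the 21 lymphocyte and neutrophil markers in the list were high enough to test and none passed, also at an unadjusted p under 0.05 or by edgeR or DESeq2, and Cd3e was between 3.13 and 7.71 in all 8 libraries. The median log2 fold change of these 3 was -0.44, and every IMC mouse lay below every vehicle mouse, with a mean over the 3 of -0.70 to -0.29 against -0.27 to 0.14. The summed normalized count of all 21, most of them too low to test, was 94.2 to 105.8 in IMC mice against 113.5 to 207 in vehicle mice. The part of these cells in the fall of interferon genes was not tested. Without control library 12, 29 of the 50 interferon genes fell, and over all fits that left out 1 pair-fed library between 23 and 36 did.

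The promoters of 5 leading members are shown, 250 bases before the RefSeq start (RefSeq on GRCm38.p6), because each holds the core of the interferon-stimulated response element, GAAA followed by any 2 bases and GAAA. Capitals mark the matches, read on either strand, and matches may overlap. The windows are Ifit1 at chr19:34640639-34640888 (+), Isg15 at chr4:156200819-156201068 (-), Igtp at chr11:58199306-58199555 (+), Irgm2 at chr11:58214727-58214976 (+) and Gbp3 at chr3:142559794-142560043 (+).
Ifit1: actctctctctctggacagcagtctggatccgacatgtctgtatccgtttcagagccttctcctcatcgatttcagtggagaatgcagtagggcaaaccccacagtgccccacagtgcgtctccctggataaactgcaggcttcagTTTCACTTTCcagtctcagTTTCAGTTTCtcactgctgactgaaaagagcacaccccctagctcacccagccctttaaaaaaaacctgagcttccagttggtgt
Isg15: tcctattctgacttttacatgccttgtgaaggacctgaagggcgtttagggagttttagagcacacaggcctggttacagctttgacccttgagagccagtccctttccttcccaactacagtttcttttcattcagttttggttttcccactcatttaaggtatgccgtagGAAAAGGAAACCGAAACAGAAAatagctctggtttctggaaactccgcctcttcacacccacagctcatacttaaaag
Igtp: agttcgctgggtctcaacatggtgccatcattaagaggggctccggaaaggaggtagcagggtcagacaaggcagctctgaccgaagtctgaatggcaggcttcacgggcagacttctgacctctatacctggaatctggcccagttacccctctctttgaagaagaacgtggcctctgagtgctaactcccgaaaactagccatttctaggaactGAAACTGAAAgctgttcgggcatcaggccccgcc
Irgm2: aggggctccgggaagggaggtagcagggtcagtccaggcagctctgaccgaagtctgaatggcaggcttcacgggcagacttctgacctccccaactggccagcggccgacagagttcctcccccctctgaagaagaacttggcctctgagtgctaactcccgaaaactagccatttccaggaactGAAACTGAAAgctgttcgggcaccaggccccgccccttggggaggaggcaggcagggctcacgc
Gbp3: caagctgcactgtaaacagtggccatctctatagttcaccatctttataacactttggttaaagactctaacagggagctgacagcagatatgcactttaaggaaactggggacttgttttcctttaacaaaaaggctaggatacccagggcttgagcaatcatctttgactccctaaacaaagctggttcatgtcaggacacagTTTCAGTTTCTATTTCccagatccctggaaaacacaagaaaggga
Ifit1 holds 2 matches, Isg15 3 overlapping ones, Gbp3 2 overlapping ones, and Igtp and Irgm2 1 each. A second RefSeq start of Gbp3 has no match in its window, and the Irgm2 start is not a GENCODE transcript start.

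Of the 50 members, 37 had a promoter in the RefSeq table, and 16 of these (43.2%) held a match, against 3.34% of the 9388 tested genes with a promoter. Genes outside the list were counted as well. Among the 298 tested genes with a match that are not on the list, 9.4% fell and 1.34% rose with IMC, and their median log2 fold change was -0.07. Among the 9053 without a match, 4.86% fell and 4.67% rose, with a median of 0.01. A match is a description of the letters in the window, and of the 28 fallen members with a promoter 11 held one. The STAT motif TTCCNGGAA was found in 4 of the 37 members (10.8%) and in 1.32% of tested genes.

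Cholesterol synthesis genes also fell. Cells make cholesterol from acetyl-CoA through mevalonate and squalene, and SREBP2 switches on the enzymes of this path when sterols in the endoplasmic reticulum are low. Of 28 genes of the list, 16 fell and none rose (57.1% lower, beside 5.31% of all genes tested), with a median log2 fold change of -0.74. IMC mice 4 and 6 were lowest, with list means of -1.13 and -0.97 relative to the vehicle mean, IMC mouse 2 was at -0.72, and IMC mouse 8 was at -0.14, within the range of the vehicle mice (-0.30 to 0.28). The count depended on single libraries: without IMC mouse 4 it was 9, without IMC mouse 6 it was 10, and without IMC mouse 8 it was 23. With the pair-fed libraries alone it was 11.

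Srebf2, the gene of the transcription factor, was 997, 1142, 809.6 and 952 in vehicle mice and 634, 528, 547 and 620.4 in IMC mice without overlap (log2 fold change -0.74, SE 0.12, adjusted p = 0.0014). Insig1, which retains the SREBP complex in the endoplasmic reticulum and is itself a target, was 4246, 4909, 4278 and 7047 in vehicle mice and 2269, 1830.3, 2507 and 3202 in IMC mice (log2 fold change -1.06, SE 0.17, adjusted p = 0.00142). Down the path, Mvk, mevalonate kinase, Mvd, mevalonate diphosphate decarboxylase, Fdft1, squalene synthase, and Lss, lanosterol synthase, fell, with log2 fold changes of -1.41, -1.47, -0.93 and -0.99 (adjusted p between 0.00286 and 0.00871). Msmo1, a sterol C4-methyl oxidase, acts later in the path. Its normalized count was 2325, 3167, 2045 and 3861 in the 4 vehicle mice and 1065, 419.7, 616 and 1854 in the 4 IMC mice. IMC mouse 8 was close to the lowest vehicle mouse, and the log2 fold change was -1.71 (SE 0.34, adjusted p = 0.00506). Hmgcs1, the cytosolic HMG-CoA synthase, was 7694, 9656, 4638 and 8762 in vehicle mice and 3368, 2526, 2302 and 6543 in IMC mice, which overlapped. Its log2 fold change was -1.14 (SE 0.26, adjusted p = 0.0128, 0.0516 without IMC mouse 6 and up to 0.0579 in other fits). Sqle, squalene epoxidase, and Idi1, isopentenyl diphosphate isomerase, fell, with log2 fold changes of -1.20 and -1.39 (adjusted p = 0.0283 and 0.0374). Without IMC mouse 4 their adjusted p was 0.106 and 0.133. The call of Sqle was lost in 7 alternatives and that of Idi1 in 12, both with the pair-fed libraries alone. Idi1 was not called by edgeR or DESeq2 either. Cyp51, a sterol demethylase, did not pass (log2 fold change -0.78, SE 0.29, adjusted p = 0.0929).

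Of sterol transport genes, Mylip, a ubiquitin ligase and target of the oxysterol receptor LXR, rose by 0.50 (adjusted p = 0.0182, up to 0.063 without IMC mouse 6). The LXR targets Abca1, Abcg5 and Abcg8, which export sterols, did not pass, with log2 fold changes of 0.14, -0.25 and -0.25.

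The promoter of Hmgcs1 is shown because it was the only one of 20 members with a RefSeq promoter that held TCACNCCAC, a sterol regulatory element, searched on both strands. The 250 bases before its start lie at chr13:119690101-119690350 (+) of GRCm38.p6, and capitals mark the match; this start is not a GENCODE transcript start.
Hmgcs1: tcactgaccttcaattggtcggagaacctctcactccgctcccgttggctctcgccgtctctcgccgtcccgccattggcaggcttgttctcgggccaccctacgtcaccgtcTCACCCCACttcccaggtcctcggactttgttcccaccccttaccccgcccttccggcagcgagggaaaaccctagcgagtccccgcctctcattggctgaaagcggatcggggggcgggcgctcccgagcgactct
TCACNCCAC was found in 1.38% of the 9388 tested genes. The CCAAT box, on either strand, was found in 18 of the 20 members (90%) and in 40.4% of the tested genes; among the 11 fallen members with a promoter, all 11 held it.

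**Figure D3:**
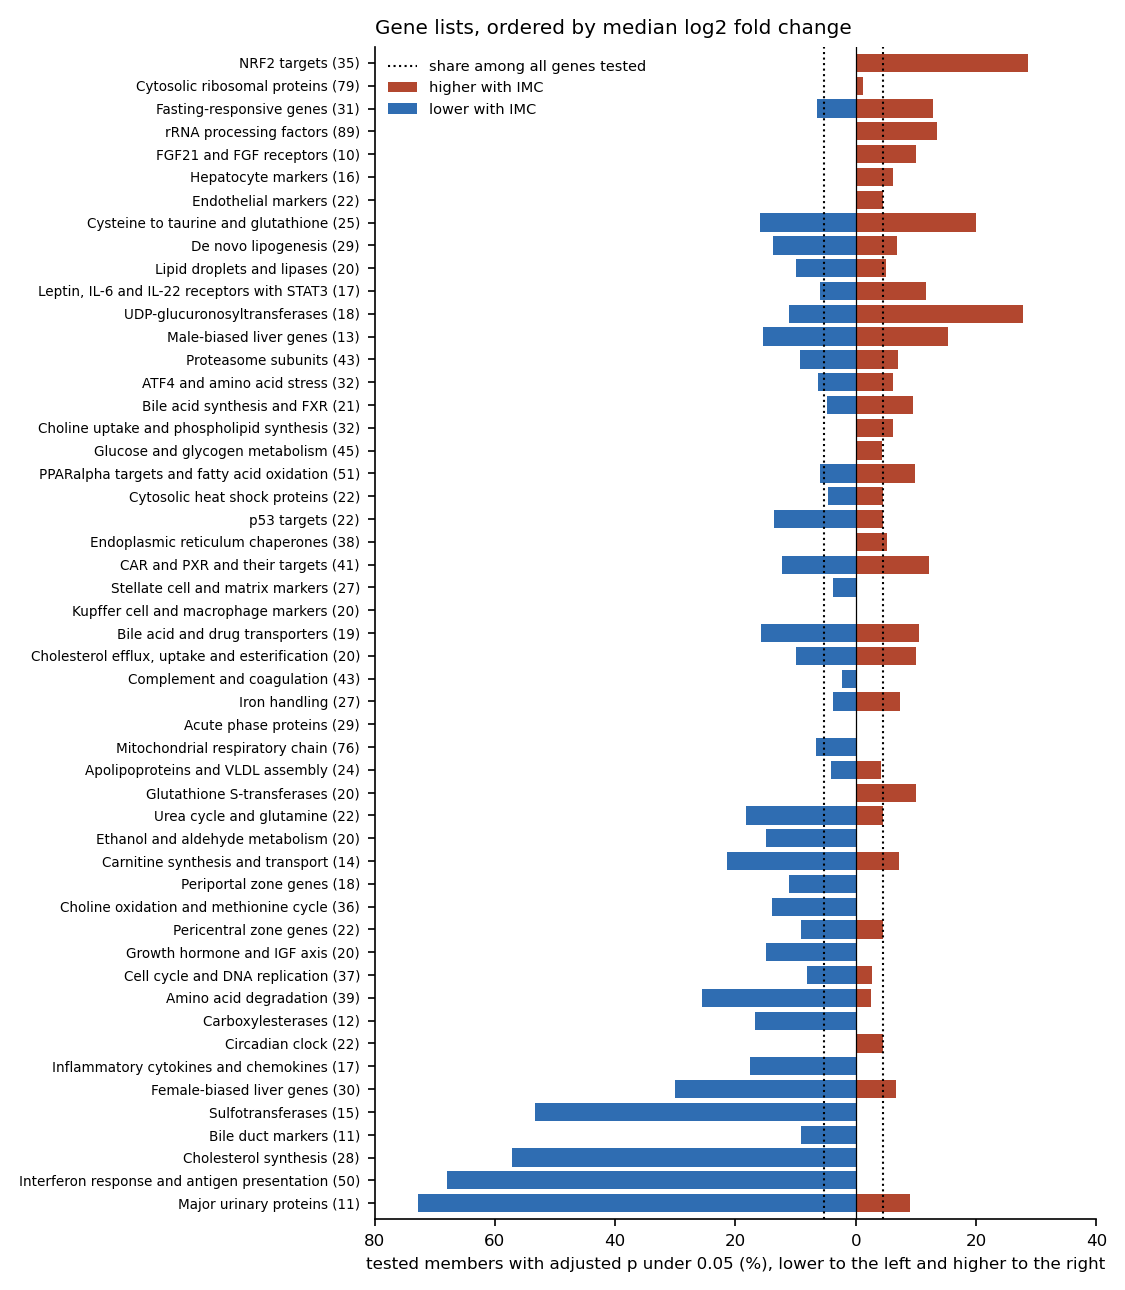
Share of the tested members of each gene list (number tested in parentheses) with an adjusted p under 0.05, lower with IMC to the left and higher to the right, for lists with at least 10 tested members. The list of genes that the study named for pair-fed mice is left out. Dotted lines mark the shares among all genes tested, 5.31% lower and 4.48% higher. Major urinary protein, interferon, cholesterol and sulfotransferase genes extend farthest to the left and NRF2 targets farthest to the right.

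Some NRF2 targets rose. NRF2 is released from KEAP1 by electrophiles and oxidants and induces genes for glutathione synthesis, conjugation and NADPH. Of 35 tested targets, 10 rose and none fell (28.6% higher, beside 4.48% of all genes tested), with a median log2 fold change of 0.33. Every IMC mouse had a list mean above every vehicle mouse, 0.27 to 0.55 against -0.17 to 0.13. Ephx1, which hydrolyses epoxides and is a target of other xenobiotic receptors too, had the largest rise of the list, 1.86 on the log2 scale. Gclc and Gclm, the subunits of the rate-limiting enzyme of glutathione synthesis, rose by 0.91 (SE 0.18) and 0.45 (SE 0.10, adjusted p = 0.00491 and 0.0107). Gsr, glutathione reductase, was 686, 719, 634 and 548 in vehicle mice and 904, 878, 922 and 846 in IMC mice (log2 fold change 0.46, SE 0.09, adjusted p = 0.00413). Ugdh, which makes UDP-glucuronic acid for conjugation, was 1509, 1387, 1575 and 1292 in vehicle mice and 2802, 3047, 2527 and 2319 in IMC mice (log2 fold change 0.89, SE 0.13, adjusted p = 0.000787). Gstm1 rose by 0.89 (SE 0.21, adjusted p = 0.014). Classical targets did not all pass: Nqo1 was at 0.21 (adjusted p = 0.427), Srxn1 at 0.26 (adjusted p = 0.358), Txnrd1 at 0.30 (adjusted p = 0.0581) and Hmox1 at 0.73 (adjusted p = 0.0867). The antioxidant response element core TGACNNNGC, on either strand, was found in 8 of 30 members with a promoter (26.7%) and in 13.9% of tested genes. Over all tested genes, 4.53% of the 1301 with a match rose and 4.55% of the 8087 without one. Leaving out 1 library gave 7 to 10 rises.

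Of the genes around cysteine, taurine and glutathione besides Csad, Mpst and Tst, which transfer sulfur in cysteine and thiosulfate metabolism, fell, with log2 fold changes of -0.60 and -0.61 (adjusted p = 0.00359 and 0.00399). Gpx4, the glutathione peroxidase that protects membrane lipids, rose by 0.43 (SE 0.09, adjusted p = 0.00853), while Gpx1, the abundant cytosolic form, fell by 0.45 (adjusted p = 0.0422, up to 0.124 without control mouse 12). Of the 25 tested genes on cysteine, taurine and glutathione, 5 rose (20%, beside 4.48% of all genes tested) and 4 fell (16%, beside 5.31%), and without IMC mouse 4 or 6 only 2 fell.

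Major urinary protein genes, which encode pheromone carriers made by the liver under growth hormone, had the lowest median of the lists described here. Of 11 tested, 8 fell (72.7%, beside 5.31% of all genes tested), Mup20 rose and 2 did not pass, with a median log2 fold change of -2.61. Most were low: only 3 had a mean of at least 100, of which 1 fell and 1 rose, with a median of -0.65. These genes are near copies on 1 chromosome, reads of which can be assigned to the wrong copy, so the values of single members are uncertain. Mup17 was 186, 159, 112 and 161 in vehicle mice and 40, 8.21, 12.2 and 16.5 in IMC mice (log2 fold change -3.16, SE 0.43, adjusted p = 0.000415). Mup20 went the other way, 204, 217, 155 and 210.1 in vehicle mice and 868, 518, 465 and 481 in IMC mice. Mup3, the most abundant member here, was 10418, 10519.9, 8572 and 15721 in vehicle mice and 10774, 5532, 4919 and 8248 in IMC mice, which overlapped (adjusted p = 0.112). In these females Mup1 and Mup7 were at 4.75 or less in all 8 libraries.

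Other genes that differ between the sexes fell in part. Of 30 tested female-biased genes, 9 fell (30%, beside 5.31% of all genes tested) and 2 rose (6.67%, beside 4.48%), with a median of -0.47. Without control mouse 10 there were 5 falls, without IMC mouse 4 or 6 there were 6, and the rises were 0 or 1 without control mouse 10 or 12 or IMC mouse 2, 4 or 6. Of 13 male-biased genes 2 fell and 2 rose (15.4% each, beside 5.31% and 4.48% of all genes tested). Their median was 0.06 and lay between -0.14 and 0.28 with 1 library left out. The cytochrome P450 Cyp3a16, the gene with the largest fall of those ranked, was 5008, 2729, 3979 and 3169 in vehicle mice and 258, 113, 344 and 425 in IMC mice, a log2 fold change of -3.82 (SE 0.84). Its adjusted p was 0.0098, 0.000511 with the pair-fed libraries alone and 0.0629 with a pseudocount of 0.1, where the call was lost. Cyp3a41b and Cyp3a59 fell, with log2 fold changes of -3.08 and -1.07 (adjusted p = 0.0105 and 0.00108), whereas Cyp3a11, the main Cyp3a gene of mouse liver, was 27588, 23261, 24433 and 26129 in vehicle mice and 29265, 23413, 20173 and 20163 in IMC mice (log2 fold change -0.14, SE 0.15, adjusted p = 0.59). In the whole Cyp3a family 4 of 8 fell (50%, beside 5.31% of all genes tested) and none rose.

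Sulfotransferases, which add sulfate to steroids, bile acids and phenols, fell in 8 of 15 tested genes (53.3%, beside 5.31% of all genes tested) and rose in none, with a median log2 fold change of -0.52. The count was 5 with the pair-fed libraries alone and without IMC mouse 4, IMC mouse 6 or control mouse 10, and up to 9 with another library left out. Sult1c2 was 220.3, 178, 252 and 209 in vehicle mice and 112, 74.8, 101 and 93 in IMC mice (log2 fold change -1.17, SE 0.20, adjusted p = 0.00166). Sult2a8, the abundant member of the steroid and bile acid branch, was 4646, 3514, 3295 and 3756 in vehicle mice and 1504, 529, 532 and 1102 in IMC mice (log2 fold change -2.19, SE 0.53, adjusted p = 0.0157, up to 0.0563 without IMC mouse 4). Sult2a5 and Sult2a3 fell, with log2 fold changes of -1.49 and -2.18 (adjusted p = 0.00314 and 0.00698), with the usual limit on reads shared between near copies of this cluster. A1bg, a plasma protein that is female-biased in mouse liver, was 483, 1123, 594 and 3033 in vehicle mice and 196, 68.4, 71.2 and 388 in IMC mice (log2 fold change -2.83, SE 0.69, adjusted p = 0.0166, up to 0.0619 without IMC mouse 4).

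On the growth hormone axis, 3 of 20 genes fell (15%, beside 5.31% of all genes tested) and none rose. Only 1 fell with the pair-fed libraries alone and without control mouse 16 or IMC mouse 2 or 6. Igfals, the acid-labile subunit that keeps IGF1 in plasma, was 779, 600.5, 995 and 1323 in vehicle mice and 473, 537, 553 and 493 in IMC mice (log2 fold change -0.79, SE 0.16, adjusted p = 0.00692). Igf1 itself was 3907, 4086, 4652 and 6325 in vehicle mice and 3029, 2839, 3016 and 3832 in IMC mice (log2 fold change -0.56, SE 0.14, adjusted p = 0.0219, up to 0.0746 without IMC mouse 4). Ghr, the receptor, and Socs2, a STAT5 target, had log2 fold changes of -0.23 and -0.58 and did not pass (adjusted p = 0.171 and 0.183).

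**Figure D4:**
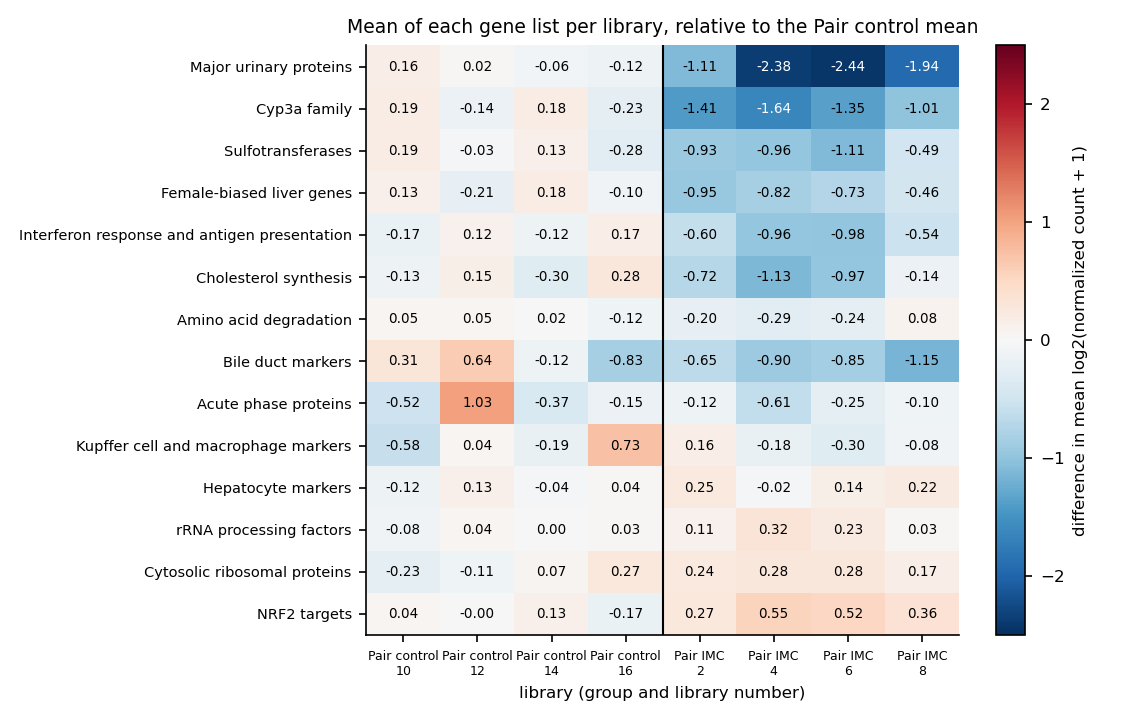
Mean of log2(normalized count + 1) over the tested members of 14 gene lists (rows) in each of the 8 pair-fed libraries (columns, vehicle to the left of the line), relative to the mean of the vehicle mice; numbers are the differences on the log2 scale. IMC mice 4 and 6 have the lowest values for major urinary protein, interferon and cholesterol genes, IMC mouse 8 lies near the vehicle mice for cholesterol genes, and control library 12 stands out in acute phase proteins.

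Genes under the xenobiotic receptors CAR and PXR moved in both directions, 5 of 41 up and 5 down (12.2% each, beside 4.48% and 5.31% of all genes tested). Without control mouse 12 or IMC mouse 2, 4 or 6 only 3 rose, and without IMC mouse 4 only 3 fell. Cyp2b10, the standard CAR target, was 62.6, 59.5, 83.7 and 53.2 in vehicle mice and 63.9, 50.2, 30 and 69.5 in IMC mice (adjusted p = 0.626). Cyp2c54 and the carboxylesterase Ces2a fell, with log2 fold changes of -1.76 and -0.88 (adjusted p = 0.00506 and 0.0116), with the Cyp2c genes subject to shared reads. Of 7 genes under the aryl hydrocarbon receptor none passed in the main limma fit or with edgeR or DESeq2, and 1 had an unadjusted p under 0.05. With the pair-fed libraries alone 1 of the 7 fell. Among UDP-glucuronosyltransferases, which conjugate bilirubin, steroids and drugs, 5 of 18 listed genes rose (27.8%, beside 4.48% of all genes tested) and 2 fell (11.1%, beside 5.31%), Ugdh counted among the rises. Only 2 rose without control mouse 12 or IMC mouse 4 or 6, 3 rose with the pair-fed libraries alone, and 4 fell without IMC mouse 8. Ugt1a9 was 385, 309, 415 and 360.3 in vehicle mice and 944, 822, 932 and 773 in IMC mice (log2 fold change 1.24, SE 0.15, adjusted p = 0.000177); Ugt1a genes share their last exons, so reads there do not belong to 1 member. Ugt2a3 fell by 0.70 (adjusted p = 0.00484).

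The axis from choline to TMA N-oxide was examined next. Of 5 tested flavin monooxygenase genes none passed with limma, edgeR or DESeq2, and 1 had an unadjusted p under 0.05. Taar5, a receptor for TMA, was at 0 in all 8 libraries. In choline oxidation and the methionine cycle, 5 of 36 genes fell (13.9%, beside 5.31% of all genes tested) and none rose. Without IMC mouse 8, 10 fell, beside 782 of all 12031 genes in that fit. DESeq2 called 8 falls and 1 rise, beside 795 falls and 665 rises over all genes. Called or not, 8 of the 36 were lower with IMC without overlap and 1 was higher, beside 6.88% and 7.64% of all genes tested. Slc25a48, a mitochondrial carrier that takes up choline, was 176, 134, 174 and 125 in vehicle mice and 56.2, 78.5, 75.9 and 101 in IMC mice (log2 fold change -0.97, SE 0.16, adjusted p = 0.00152). Gamt, which uses methyl groups to make creatine, fell by 0.81 (adjusted p = 0.00499), and Shmt1 and Shmt2, which move single carbons from serine to folate, fell, with log2 fold changes of -0.38 and -0.47 (adjusted p = 0.0123 and 0.00651). Chdh, choline dehydrogenase, Bhmt, which remethylates homocysteine with betaine, and Pemt, which makes phosphatidylcholine from phosphatidylethanolamine, did not pass, with log2 fold changes of 0.20, -0.30 and 0.08. Etnppl, which breaks down phosphoethanolamine, rose by 1.03 (SE 0.19, adjusted p = 0.00375).

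In lipid metabolism, 2 of 29 lipogenesis genes rose (6.9%, beside 4.48% of all genes tested) and 4 fell (13.8%, beside 5.31%). No rise was left without control mouse 12 or 16 or IMC mouse 4, 6 or 8, and 1 without control mouse 10. The falls were 1 without IMC mouse 4 or 6 and 2 without control mouse 16 or IMC mouse 2. Srebf1, the transcription factor of fatty acid synthesis, was 2447, 2535, 2526 and 2537 in vehicle mice and 1302, 1760.1, 1398 and 1378 in IMC mice (log2 fold change -0.79, SE 0.12, adjusted p = 0.000801). Scd1, stearoyl-CoA desaturase, was 101679, 120212, 156715 and 99049.6 in vehicle mice and 121955, 269182, 317413 and 352866 in IMC mice, so that 3 IMC mice were well above the vehicle mice and mouse 2 among them. Its log2 fold change was 1.07 (SE 0.33, adjusted p = 0.0461). The call was lost in 10 alternatives, with an adjusted p of 0.131 without IMC mouse 6 and up to 0.18 in other fits. Fasn, fatty acid synthase, was at 0.14 (adjusted p = 0.639). Plin5, a lipid droplet protein of oxidative tissue, rose by 0.71 (SE 0.15, adjusted p = 0.00683), and Sort1, a sorting receptor for apolipoprotein B, by 1.18 (SE 0.25, adjusted p = 0.00792). Of 51 PPARalpha targets and fatty acid oxidation genes, 5 rose (9.8%, beside 4.48% of all genes tested) and 3 fell (5.88%, close to the 5.31% of all genes), with a median of 0.00. The rises were 1 without IMC mouse 6, 2 without IMC mouse 4 and 3 without control mouse 12. The falls were 8 without control mouse 12, 1 without control mouse 14 or 16 and 0 without IMC mouse 4 or 6. Cyp4a14 rose by 1.24 (SE 0.30, adjusted p = 0.0165, up to 0.0573 without IMC mouse 6), and Fgf21, the fasting hormone of the liver, by 1.84 (SE 0.46, adjusted p = 0.0185, up to 0.0711 without IMC mouse 4), with the lowest IMC mouse at 69.5 and the highest vehicle mouse at 74.1. Cpt1a, which admits fatty acids to mitochondria, had a log2 fold change of -0.28 and did not pass.

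Of 31 fasting-responsive genes 4 rose (12.9%, beside 4.48% of all genes tested) and 2 fell (6.45%, close to the 5.31% of all genes). Without IMC mouse 4 or 6 there were 2 rises, and in 6 of the 8 fits that left out 1 pair-fed library there was 1 fall, all but those without control mouse 10 or IMC mouse 8. G6pc, glucose-6-phosphatase, which releases glucose from the liver, was 5149.9, 2864, 1154 and 3146 in vehicle mice and 6819, 10089.5, 6133 and 7259 in IMC mice (log2 fold change 1.46, SE 0.38, adjusted p = 0.0217, up to 0.0753 without IMC mouse 4). Pck1, the other main gene of glucose production, was at 0.35 (adjusted p = 0.375). Gpi1, glucose-6-phosphate isomerase, was 1898, 1919, 2618 and 2551 in vehicle mice and 3669, 3405, 4068 and 2905 in IMC mice (log2 fold change 0.65, SE 0.15, adjusted p = 0.0119). Foxo3, a transcription factor of fasting, fell by 0.77 (adjusted p = 0.00675). Hnf4a, a central transcription factor of hepatocytes, was 6888, 9468, 8580.2 and 7429 in vehicle mice and 12550.4, 15228, 14824 and 10514 in IMC mice (log2 fold change 0.71, SE 0.13, adjusted p = 0.00323). It was the only 1 of 16 hepatocyte markers to pass in the main limma fit, while edgeR called 2 and DESeq2 3. In bile acid synthesis 2 of 21 genes rose (9.52%, beside 4.48% of all genes tested) and 1 fell (4.76%, close to the 5.31% of all genes). With 1 library left out 1 or 2 rose, and none fell except without IMC mouse 8, where 2 did. Cyp7a1, the rate-limiting enzyme, was 1363, 1044, 1860.3 and 1969 in vehicle mice and 1919, 2199.8, 2411 and 3498 in IMC mice, which overlapped (log2 fold change 0.69, SE 0.47, adjusted p = 0.386).

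Amino acid degradation was lower in part. Of 39 genes 10 fell and Csad rose (25.6% lower, beside 5.31% of all genes tested), with a median log2 fold change of -0.28. Aldh4a1, of proline breakdown, and Prodh2, of hydroxyproline breakdown, fell, with log2 fold changes of -0.57 and -0.42 (adjusted p = 0.00436 and 0.0108). Ivd, Mccc2 and Bckdhb, enzymes of branched-chain amino acids, fell, with log2 fold changes of -0.54, -0.51 and -0.39, the calls of Ivd and Bckdhb being lost with 1 library left out (adjusted p = 0.0515 and 0.0603, both without IMC mouse 4). The count was 3 without IMC mouse 4, 5 without IMC mouse 6, 6 without control mouse 10 and 19 without IMC mouse 8. In the urea cycle and glutamine list, 4 of 22 fell (18.2%, beside 5.31% of all genes tested). The falls were 1 without IMC mouse 4 or 6, and 2 without control mouse 10, 12 or 14 or IMC mouse 2 and with the pair-fed libraries alone. Glud1, glutamate dehydrogenase, rose by 0.34 (SE 0.09, adjusted p = 0.0215), a call lost in 5 alternatives, among them the pair-fed libraries alone (adjusted p = 0.0731) and the fit without IMC mouse 2 (adjusted p = 0.0638). Gpt, alanine aminotransferase, was 3012, 3118, 3253 and 2648 in vehicle mice and 1968, 1542, 1830.0 and 2427 in IMC mice (log2 fold change -0.65, SE 0.11, adjusted p = 0.00257). Cps1, which starts the cycle, was at -0.11 (adjusted p = 0.733).

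Among genes that build ribosomes, a minority passed and all of these rose. Of 89 rRNA processing factors, 12 rose and none fell (13.5% higher, beside 4.48% of all genes tested), with a median log2 fold change of 0.17. Ftsj3, Ddx21 and Polr1a, which act in ribosomal RNA synthesis and maturation, rose by 0.47 (SE 0.09), 0.43 (SE 0.09) and 0.41 (SE 0.08, adjusted p = 0.00546, 0.00639 and 0.00664). The count was 5 without IMC mouse 4, 4 without IMC mouse 6 and 20 without IMC mouse 8. Of 79 ribosomal protein genes only Rplp0 passed (0.48, SE 0.11, adjusted p = 0.0114), but the median of the list was 0.26, and without control mouse 16, the vehicle mouse with the highest mean of this list, 39 of the 79 passed, all of them higher. Respiratory chain genes had 5 falls among 76 (6.58%, close to the 5.31% of all genes tested). There were 0 in 6 of the 8 fits that left out 1 pair-fed library, those without IMC mouse 2, 4 or 6 or control mouse 10, 12 or 14. Still, 61 of the 76 had a log2 fold change below 0, with a median of -0.09. The list mean was -0.12 to -0.07 in IMC mice and -0.03 to 0.06 in vehicle mice. Without overlap, 12 of the 76 were lower and 2 higher, beside 6.88% and 7.64% of all genes tested. Among 38 genes of endoplasmic reticulum protein folding and its stress sensors, 2 rose (5.26%, close to the 4.48% of all genes) and none fell, with a median of -0.02. They were Atf6 and Ern1, which encodes the sensor IRE1 and rose by 0.66 (SE 0.12, adjusted p = 0.00358).

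None of 29 acute phase genes passed at an adjusted p of 0.05 with limma, and their median log2 fold change was -0.08, with control library 12 at 1.03 above the vehicle mean and the other 7 libraries between -0.61 and -0.10. At an unadjusted p under 0.05 there were 5, and edgeR and DESeq2 called 1 each. Hp and Crp, plasma proteins of the acute phase, had log2 fold changes of 0.38 and -0.08. Of 17 cytokine and chemokine genes that could be tested, 3 fell (17.6%, beside 5.31% of all genes tested), Cxcl10, Cxcl9 and Cxcl12, and none rose. With the pair-fed libraries alone 2 fell. The call of Cxcl12 was lost in 4 alternatives, that fit among them (adjusted p up to 0.0730). That of Cxcl9 was lost without IMC mouse 6 (adjusted p = 0.0547). Tnf was between 0.953 and 5.70 in all 8 libraries and was not tested. In complement and coagulation, F11, coagulation factor XI, was the only 1 of 43 to pass with limma (2.33% lower, beside 5.31% of all genes tested), and DESeq2 called 2. F11 fell by 1.05 (adjusted p = 0.0123, up to 0.0519 in the alternatives), a call lost with the pair-fed libraries alone.

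Markers of endothelial, stellate and bile duct cells passed in 1 gene per list. Of 22 endothelial markers 1 rose (4.55%, close to the 4.48% of all genes tested), Ehd3, by 0.49 (SE 0.10, adjusted p = 0.00458). Of 27 stellate cell and matrix markers 1 fell (3.7%, beside 5.31% of all genes tested), Lrat (-0.65, adjusted p = 0.0495, up to 0.13 without control mouse 16). Of 11 bile duct markers 1 fell (9.09%, beside 5.31%). The count was 0 without control mouse 10 or 12 or IMC mouse 4 or 6, and 3 without control mouse 16. The median was -0.67 and the list mean was -1.15 to -0.65 in IMC mice and -0.83 to 0.64 in vehicle mice. Krt7, a keratin of bile duct cells, was 33.4, 40.3, 17.6 and 19 in vehicle mice and 11.4, 5.47, 8.44 and 9.42 in IMC mice (log2 fold change -1.52, SE 0.45, adjusted p = 0.0393, up to 0.119 without IMC mouse 4). Krt19 was 159.7, 261, 126 and 38 in vehicle mice and 51.5, 28.3, 34.7 and 11.8 in IMC mice, with the lowest vehicle mouse among the IMC mice, and it did not pass (log2 fold change -2.05, SE 0.83, adjusted p = 0.128). Vil1, shared by bile duct and intestinal epithelium, was 8.56 to 25.6 in vehicle mice and 1.18 to 6.56 in IMC mice. Other pancreas and intestine markers are given further up. The part of bile duct content in any other fall was not tested.

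The effect of IMC on both diets was compared as the difference of its effect in ethanol-fed and pair-fed mice, and 139 of 12031 genes (1.16%) passed, 40 above 0 (0.332%) and 99 below (0.823%). The count was 53 to 85 without control mouse 12 or 14, IMC mouse 2, 6 or 8, ethanol-fed vehicle mouse 1, 3, 5 or 7, or ethanol-fed IMC mouse 13 or 15. The lowest p belonged to Irgm2, Cyp2f2, 9130409I23Rik, Fam198a and Uck1. Irgm2 fell by 1.12 in pair-fed mice, while its log2 fold change in ethanol-fed mice was -0.08 (adjusted p = 0.532); the difference was 1.04 (SE 0.12, adjusted p = 0.000665). Igtp behaved alike, with 0.03 in ethanol-fed mice and a difference of 1.17 (SE 0.17, adjusted p = 0.00243). Of the 50 interferon genes, 7 passed for the difference and all 7 were above 0, Irgm2, Igtp, H2-Q4, Tap1, Isg15, Irf7 and Ifi35. In ethanol-fed mice 17 of the 50 fell with IMC and none rose, with a median of -0.35, where 22.4% of all genes tested passed and 11.5% fell. Phlda1 was a further gene whose fall was larger in pair-fed mice (difference 1.61, SE 0.31, adjusted p = 0.0178).

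The difference was below 0 in 20 genes that rose with IMC in pair-fed mice, 5 of which are named here. Ugt1a9 had a log2 fold change of 1.24 in pair-fed and -0.35 in ethanol-fed mice (difference -1.59, SE 0.22, adjusted p = 0.00196). For the unnamed gene 9130409I23Rik the values were 1.17 and -0.67 (difference -1.84, SE 0.22, adjusted p = 0.000781). For Scd1 they were 1.07 and -0.97 (difference -2.04, SE 0.46, adjusted p = 0.0414), and for Lhx6 1.55 and -0.18 (difference -1.73, SE 0.39, adjusted p = 0.0435). For the endothelial marker Ehd3 they were 0.49 and -0.15 (difference -0.64, SE 0.14, adjusted p = 0.0322). Other genes changed with IMC in ethanol-fed mice, with a small value in pair-fed mice: Cyp2f2, a cytochrome P450 of the periportal zone, was 5021, 5041, 4799 and 5199.7 in vehicle and 5842, 4597, 5383 and 5907 in IMC pair-fed mice, and its log2 fold change was -1.38 in ethanol-fed mice (difference -1.49, SE 0.17, adjusted p = 0.000665). Fam198a and Uck1 had log2 fold changes of -0.03 and 0.01 in pair-fed and -2.27 and -0.84 in ethanol-fed mice (adjusted p of the difference 0.00128 and 0.00182).

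Other lists were compared in the same way. Of 28 cholesterol genes none passed for the difference, with medians of -0.74 in pair-fed and -0.78 in ethanol-fed mice. In ethanol-fed mice 21 of them fell, where 1378 of all 12031 genes tested fell. Of 35 NRF2 targets none passed for the difference; 22 rose in ethanol-fed mice, where 1320 of all 12031 genes tested rose, with a median of 0.66 against 0.33. Of 11 major urinary protein genes 2 passed for the difference (1.16% of all genes tested did), with medians of -2.61 and -3.63. Of 79 ribosomal protein genes 63 rose in ethanol-fed mice, beside the same 1320 of 12031, and none passed for the difference. A difference that missed the threshold was not shown to be absent.

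**Figure D5:**
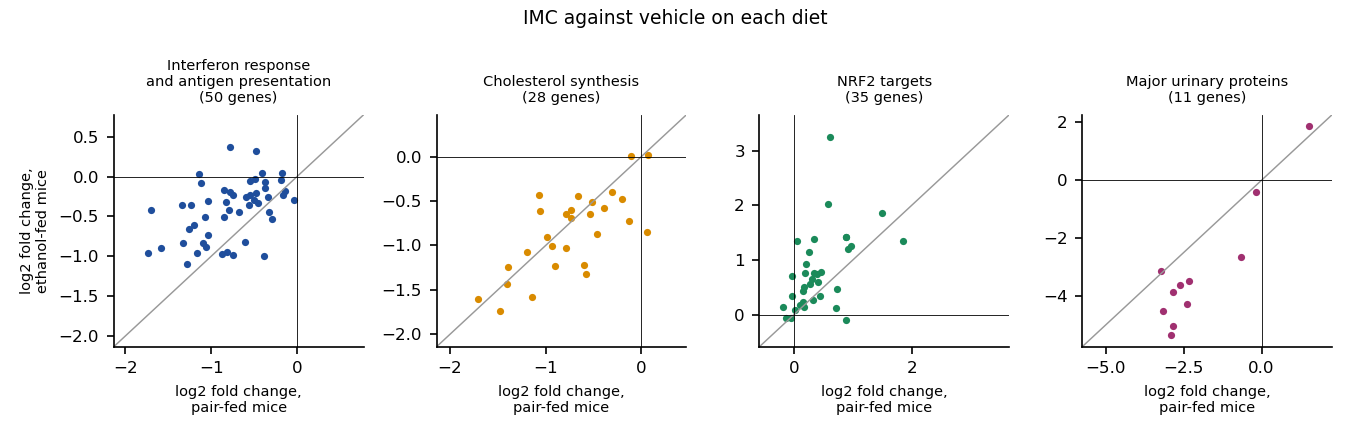
Log2 fold change with IMC in pair-fed mice (horizontal axes) against that in ethanol-fed mice (vertical axes) for the tested members of 4 gene lists, with the line of equal change. Interferon genes lie mostly above the line, with a median of -0.76 in pair-fed and -0.35 in ethanol-fed mice, and cholesterol genes lie around it.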

How the data were processed

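Liver mRNA of 16 mice was measured by RNA-seq in 4 groups of 4, and groups were taken from the labels. The submitters' processing notes name Trim Galore, FastQC, STAR, edgeR and mm10, with versions not given in the sources used here. The deposited table holds a normalized signal: gene counts that the authors divided by a size factor per library, so that whole reads could be recovered from it (100% of values in each pair-fed library within 0.01 of a whole read). On these reads edgeR called 1149 genes and DESeq2 1460, and 1097 were called by both and by limma. Replicates were separate mice. The fit was limma (3.58.1, R 4.3.3) on log2(normalized count + 1) of all 16 libraries with a mean per group, a mean-variance trend and Benjamini-Hochberg adjustment at 0.05, over genes that reached 10 in 4 or more of the 8 pair-fed libraries. Fold changes are on that log2 scale, which understates changes of low genes. Depth was 9632659 to 11976719 reads per pair-fed library. On simulated data for Pair IMC minus Pair control with 12031 genes, the fit made 9 false calls. It recovered 68% of 100 genes changed by 0.75 and 92% of 100 changed by 1.5 (log2). The rate of false calls in the measured libraries was not tested. Alternatives were other pseudocounts, filters and scalings, edgeR (4.0.16) and DESeq2 (1.42.0) on the recovered reads, and leaving out each library. The genes named are the 12 largest called changes each way among genes with groups that do not overlap and a mean of at least 100 in the higher group (Gm and Rik symbols left out), those the study named, the 5 lowest p for the difference between diets, and up to 6 called members of each list, and other members were chosen after their values were seen. Members and lists were chosen with earlier results of these data known. Gene positions are from GENCODE vM21 (GRCm38) and promoters from RefSeq (GRCm38.p6). Results for some genes are not reported here.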

Additional observations from a re-analysis of the deposited data

Results flagged for a closer look

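Of the groups of 4 behind the named genes, those with 1 library far from the other 3 by Dixon's test at the 95% level are given here, a test that flags about 5% of groups by chance. Of 314 groups tested, 25 were flagged. In Pair IMC library 2, the normalized count that stood apart from the other 3 was that of Cd3e (7.63), Cxcl12 (3008), Glud1 (21450) and Mup20 (868). In Pair IMC library 4, the normalized count that stood apart from the other 3 was that of 9130409I23Rik (92.2). In Pair IMC library 6, the normalized count that stood apart from the other 3 was that of Il22ra1 (173). In Pair IMC library 8, the normalized count that stood apart from the other 3 was that of Bhmt (44030), Cps1 (72260), Ctrb1 (0), Lss (719), Mvd (271), Pemt (4018), Phlda1 (132) and Spaca6 (174). In Pair control library 10, the normalized count that stood apart from the other 3 was that of Srebf1 (2447) and Tsku (142). In Pair control library 12, the normalized count that stood apart from the other 3 was that of Hmox1 (263), Irf9 (496), Junb (887), Saa1 (6450), Stat2 (1129) and Ugt2a3 (2398). In Pair control library 14, the normalized count that stood apart from the other 3 was that of Mup1 (0) and Nqo1 (149.8). In Pair control library 16, the normalized count that stood apart from the other 3 was that of Gbp11 (287). For Ctrb1 and Mup1, the library at 0 differed from the other 3 by only 1 read.

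The effect of IMC differed between diets by the limma test of that difference (adjusted p under 0.05) in 20 named genes. The difference in log2 fold change, ethanol-fed minus pair-fed mice, was above 0 in H2-Q4 (0.68), Ifi35 (0.80), Igtp (1.17), Irf7 (1.16), Irgm2 (1.04), Isg15 (1.28), Phlda1 (1.61), Socs2 (1.96), Sult2a5 (1.71) and Tap1 (0.89). It was below 0 in 9130409I23Rik (-1.84), Cyp2f2 (-1.49), Ehd3 (-0.64), Fam198a (-2.24), Lhx6 (-1.73), Mup15 (-2.46), Mup3 (-2.02), Scd1 (-2.04), Uck1 (-0.84) and Ugt1a9 (-1.59). Irgm2 and Cyp2f2 had the lowest adjusted p, 0.000665 in both.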

How the results depend on the processing

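With the pair-fed libraries alone, 674 genes passed (302 higher, 372 lower), and 655 (302 and 353) after quantile normalization of these libraries, both in fits with fewer samples. Upper quartile scaling in edgeR moved the split to 434 higher and 756 lower. Leaving out 1 library gave 537 to 1432 genes, 217 to 650 of them higher and 309 to 782 lower. The lowest totals were without IMC mouse 6 (537) and IMC mouse 4 (542). For the difference between diets the count was 85 with no filter, 83 with no mean-variance trend, 340 with DESeq2, and 53 to 166 with 1 library left out. The median of major urinary protein genes was -1.93 with a pseudocount of 5 and -0.65 among genes with a mean of at least 100, and that of sulfotransferases was -0.92 to -0.49 with 1 library left out. Values near 0 changed sign: Fam198a was 0.034 and Uck1 -0.024 after quantile normalization, and Uck1 -0.019 with edgeR upper quartile scaling. With 1 library left out, Fam198a ranged from -0.23 to 0.10, Uck1 from -0.024 to 0.049, Clec4f from -0.24 to 0.26 and Saa1 from -1.48 to 0.12 (without control library 12). The causes were not tested. Of 113 named genes that passed, 83 passed under every alternative, and 22 did not pass without IMC mouse 6. No paired analysis was possible because the groups share no replicate numbers. With 4 mice a side, a gene that did not pass is not shown to be unchanged.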
